A study of Homo sapiens with 12 samples.

Results

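The histone genes of 2 T-cell leukaemia lines were examined by probe set. Members were the probe sets whose annotation named a single gene with a symbol starting H1-, H2AC, H2AZ, H2AX, H2BC, H3C, H3-, H4C or MACROH2A. The rule uses names and no measured values, but it was set with earlier results of these data known. The members were 78 of the 54675 probe sets of the array. They stood for 57 of the 19775 genes with a probe set of a single symbol, 42 of them on chromosome 6. By role, 12 probe sets belonged to linker histones, 10 to core H2A, 15 to core H2B, 9 to core H3, 9 to core H4, 19 to variants, and 4 to pseudogenes or an antisense RNA. No filter on low values was applied, so all 78 were tested.

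The arrays (Affymetrix U133 Plus 2.0, 12 in all) came from KOPT-K1 and HPB-ALL, established human lines of T-cell acute lymphoblastic leukaemia. Both lines were grown in the same serum-containing medium in 24-well plates and received either SAHM1 at 20 µM or an equal amount of the DMSO vehicle for 24 hours. SAHM1 is a cell-permeable stapled peptide built on a helix of a mastermind-like protein, made to keep that coactivator off the NOTCH transcription complex. The 4 groups (KOPT-K1 with DMSO, KOPT-K1 with SAHM1, HPB-ALL with DMSO, HPB-ALL with SAHM1) held 3 cultures each, with 1 array per culture. The only control was DMSO within the same line, and each line is a single genetic background. Each deposited value is a ratio to the mean of the DMSO arrays of that line. They hold no signal level, so the T-cell label could not be set against the levels of T-cell markers, and levels were not compared between genes or lines. In bulk RNA, fewer cells of a kind and less RNA per cell cannot be told apart.

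Histones package DNA into nucleosomes. The core of a nucleosome is built from H2A, H2B, H3 and H4, and the linker histone H1 binds where DNA enters and leaves it. Most core and linker histone genes lie in clusters and are transcribed in S phase, when new DNA has to be packaged. Their mRNAs have no introns and end in a stem-loop bound by SLBP in place of a poly(A) tail. Variant histones such as H2A.Z, H2A.X, H3.3 and macroH2A are made through the cell cycle from genes outside the main clusters, mostly as polyadenylated mRNAs, and H2A.X makes both forms. 18S ribosomal RNA also has no poly(A) tail, and control probe sets on the array measure it in the labelled sample.

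That measure differed between the arrays. The mean log2 ratio of the 3 control probe sets for 18S rRNA stood at 1.05, -1.01 and -1.65 in HPB-ALL DMSO replicates 1, 2 and 3, and at 1.73, 1.89 and 1.35 with SAHM1. DMSO replicate 1 thus lay near the SAHM1 arrays and replicates 2 and 3 far below, and the groups did not overlap. The groups' means lay 2.19 apart (exact permutation p = 0.10, the smallest that 3 arrays against 3 allow). In KOPT-K1 the 18S mean was lower with SAHM1 by -0.26 (exact permutation p = 0.20), within a range of -0.39 to 0.13 over the 6 arrays. The control probe sets for 28S rRNA, which also lacks a poly(A) tail, were higher with SAHM1 in both lines, 0.31 above DMSO in HPB-ALL and 0.27 above it in KOPT-K1 (exact permutation p = 0.10 in each), so that in KOPT-K1 the 18S and 28S differences had opposite signs. The 18 hybridization spike probe sets were higher with SAHM1 in KOPT-K1 (0.83, exact permutation p = 0.10) and lower in HPB-ALL (-0.39, exact permutation p = 0.50). The 5' minus 3' difference of the ACTB controls moved by -0.17 and -0.24 in the 2 lines (exact permutation p = 0.10 in each).

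The question put to each member was whether SAHM1 moved it within a line. In HPB-ALL, 12 of 78 member probe sets rose and 0 fell, while 3.09% of all 54613 probe sets tested rose and 2.06% fell. The test of the difference between the lines gave 15 members with a higher and 1 with a lower response in HPB-ALL, against 8.49% and 3.19% of all probe sets. In HPB-ALL 27 members (34.6%) were higher and 2 (2.56%) lower at an unadjusted p under 0.05 by limma's test, against 9.97% and 7.8% of all probe sets. In KOPT-K1, 3 members rose and 5 fell, against 4.75% and 9.8% of all probe sets. The median member stood at a log2 difference of 0.14 in HPB-ALL and -0.05 in KOPT-K1, and the median of all probe sets at -0.01 and 0.0022. Differences are log2 values of SAHM1 minus DMSO ± the standard error of limma's fit to all 12 arrays, with n = 3 per group. A change was called at an adjusted p under 0.05 (Benjamini-Hochberg over all probe sets tested). The median standard error of a member was 0.11.

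**Figure D1:**
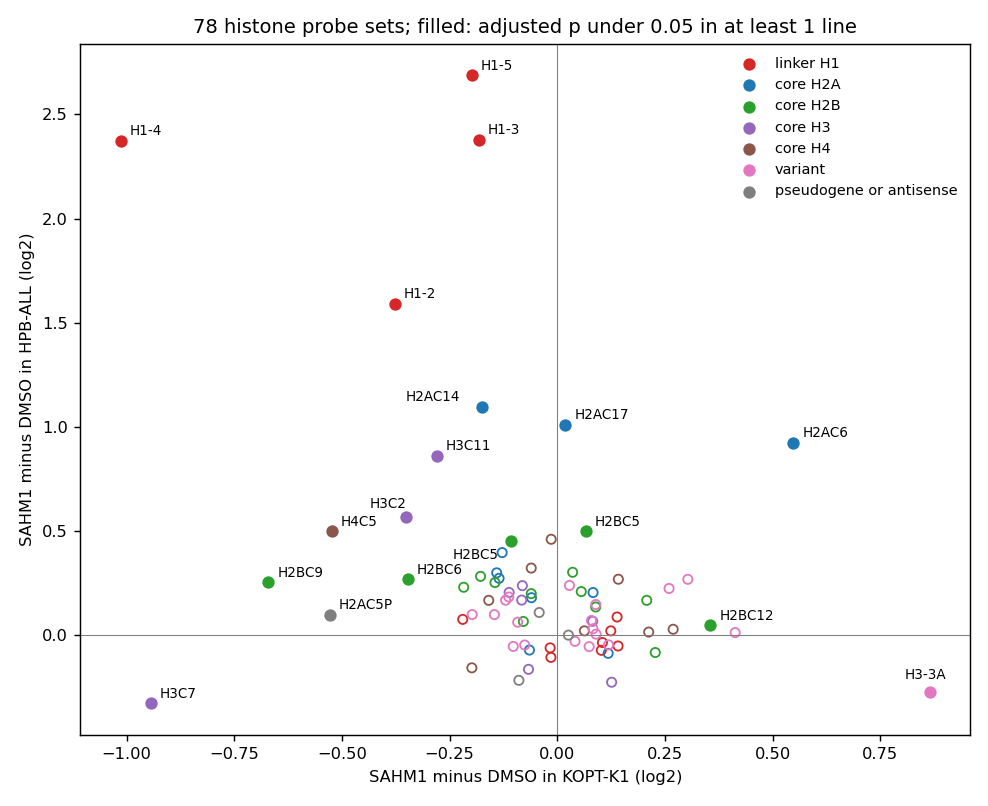
Log2 difference of SAHM1 minus DMSO in KOPT-K1 (horizontal axis) and HPB-ALL (vertical axis) for the 78 histone probe sets, coloured by role, with filled and named points for those called in at least 1 line. H1-2, H1-3, H1-4 and H1-5 lie above 1.5 in HPB-ALL and at or below -0.18 in KOPT-K1, and most other points lie within 0.5 of 0 in both lines.

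The largest rises were those of 4 linker histone genes of the chromosome 6 cluster, H1-2, H1-3, H1-4 and H1-5, which encode the somatic H1 subtypes made in dividing cells. The 4 moved together in HPB-ALL, while the other linker probe sets stood near 0. Their promoters are shown because these genes move together; the promoter of H1-1, a clustered H1 gene that stood near 0 in both lines, follows for comparison. Each is the RefSeq sequence of the 250 bases before the annotated start (build GRCh38.p14), printed 5' to 3' along the gene. Capitals mark every match, on either strand, to AAACACA (a box known from H1 promoters), CCAAT (bound by NF-Y), TATAAA, ATTTGCAT (the octamer bound by POU2F1) and TGGGAA (core letters of sites for RBPJ, the DNA-binding partner of NOTCH). H1-2 lies on the minus strand at chr6:26056471-26056720, H1-3 on the minus strand at chr6:26234988-26235237 and H1-4 on the plus strand at chr6:26156079-26156328. H1-5 lies on the minus strand at chr6:27867589-27867838 and H1-1 on the minus strand at chr6:26017788-26018037.
H1-2: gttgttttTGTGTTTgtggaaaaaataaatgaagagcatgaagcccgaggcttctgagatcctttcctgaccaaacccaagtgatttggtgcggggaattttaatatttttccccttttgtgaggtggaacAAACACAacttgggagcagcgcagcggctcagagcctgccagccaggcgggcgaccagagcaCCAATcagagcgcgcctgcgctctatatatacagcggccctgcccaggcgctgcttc
H1-3: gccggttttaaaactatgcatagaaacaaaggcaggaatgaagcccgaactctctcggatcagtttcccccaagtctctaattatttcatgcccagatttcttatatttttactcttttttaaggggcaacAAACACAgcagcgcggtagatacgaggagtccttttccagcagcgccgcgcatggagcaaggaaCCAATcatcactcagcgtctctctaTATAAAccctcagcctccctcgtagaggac
H1-4: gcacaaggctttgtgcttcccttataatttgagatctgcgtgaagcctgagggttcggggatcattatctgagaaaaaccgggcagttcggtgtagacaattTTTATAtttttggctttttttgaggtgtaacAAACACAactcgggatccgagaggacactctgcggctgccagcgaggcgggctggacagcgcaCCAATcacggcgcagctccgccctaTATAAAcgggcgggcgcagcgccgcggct
H1-5: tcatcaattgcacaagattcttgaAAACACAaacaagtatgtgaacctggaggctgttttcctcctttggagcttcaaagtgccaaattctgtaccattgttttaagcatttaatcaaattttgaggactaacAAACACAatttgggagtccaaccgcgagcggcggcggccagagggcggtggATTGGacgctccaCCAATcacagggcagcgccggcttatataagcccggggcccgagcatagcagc
H1-1: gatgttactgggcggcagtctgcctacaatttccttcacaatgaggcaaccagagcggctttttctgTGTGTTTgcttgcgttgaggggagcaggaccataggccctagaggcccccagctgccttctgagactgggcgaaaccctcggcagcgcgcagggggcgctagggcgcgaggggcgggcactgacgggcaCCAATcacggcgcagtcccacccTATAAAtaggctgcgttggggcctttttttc

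The 4 promoters share a layout. AAACACA on the gene's own strand began 119 bases before the start in H1-2 and H1-3 and 117 bases before it in H1-4 and H1-5. CCAAT on the same strand began 57, 55, 54 and 53 bases before the start in H1-2, H1-3, H1-4 and H1-5. H1-2 held another AAACACA on the opposite strand 242 bases before the start, and H1-5 another on its own strand 226 bases before it. H1-1 held CCAAT 54 bases before its start, but its only AAACACA lay on the opposite strand, 183 bases before the start. RefSeq promoters were matched for 50 of the 57 member genes. Over these, AAACACA was found in 7, all linker genes (H1-1 to H1-7), and in 4.95% of 27305 promoters of all genes. Of these 7 genes H1-1, H1-6 and H1-7 were not called in HPB-ALL. A link between the box and the response was not tested. None of the 5 linker promoters printed above held TGGGAA or ATTTGCAT, which says only that these letters are not in the 250 bases. Over the 50, TGGGAA was in 13 (26%), against 21.1% of all promoters, and TATAAA in 31, against 11.1%. ATTTGCAT was in 16, against 1.66% of all promoters: 6 of 8 H2A and 10 of 13 H2B genes.

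H1-5 (probe set 214534_at) stood at log2 ratios of 1.10, -1.42 and -1.04 in HPB-ALL DMSO replicates 1, 2 and 3, and at 2.25, 2.80 and 1.64 with SAHM1. Every SAHM1 array lay above every DMSO array, and DMSO replicate 1 was nearer to each SAHM1 array than to either of the other DMSO arrays. H1-5 rose by 2.69 ± 0.50, a 6.44-fold change (limma, adjusted p = 0.00978). H1-3 (214537_at) stood at 1.17, -1.42 and -1.39 in DMSO and at 1.74, 2.27 and 1.49 with SAHM1, and rose by 2.38 ± 0.51 (adjusted p = 0.0201). H1-4 (208553_at) showed the same order, with 1.10, -1.39 and -1.08 in DMSO and 1.90, 2.28 and 1.58 with SAHM1. It rose by 2.37 ± 0.47 (adjusted p = 0.0136). H1-2 (209398_at) had a narrower range, 0.76, -0.63 and -0.61 in DMSO and 1.41, 1.66 and 1.23 with SAHM1, and rose by 1.59 ± 0.30 (adjusted p = 0.0109). In all 4 genes DMSO replicate 1 was the highest of the 3 controls, above the mean of replicates 2 and 3 by 1.39 (H1-2) to 2.57 (H1-3). The mean of the SAHM1 arrays lay above replicate 1 by less, from 0.67 (H1-3) to 1.13 (H1-5).

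The order of the arrays in these 4 genes was that of their 18S levels, except that DMSO replicates 2 and 3, the lowest in both measures, were in the opposite order. With the 18S mean of each array as a covariate, the difference in HPB-ALL was 0.59 ± 0.38 for H1-5, 0.34 ± 0.32 for H1-4, 0.33 ± 0.24 for H1-2 and 0.08 ± 0.27 for H1-3. None was called (limma, adjusted p from 0.943 to 0.999, with 0.0348% of all probe sets called in HPB-ALL). The slope on the 18S level was 1.05 ± 0.12 for H1-3, 0.96 ± 0.17 for H1-5, 0.93 ± 0.14 for H1-4 and 0.57 ± 0.10 for H1-2, in log2 units per log2 unit of 18S. Because no DMSO array of HPB-ALL had an 18S level within the range of the SAHM1 arrays, treatment and 18S level cannot be told apart over these 6 arrays. Single arrays also decided calls. H1-2, H1-3 and H1-4 were not called without DMSO replicate 2 or without DMSO replicate 3, H1-3 was not called without SAHM1 replicate 1, and none of the 4 was called without SAHM1 replicate 2. Against DMSO replicate 1 alone, H1-5 stood at 1.13 and was not called (adjusted p = 0.392, with a range of 6.02e-05 to 0.943 over its 21 alternatives). Within the 6 HPB-ALL arrays alone, H1-3 and H1-4 were not called.

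**Figure D2:**
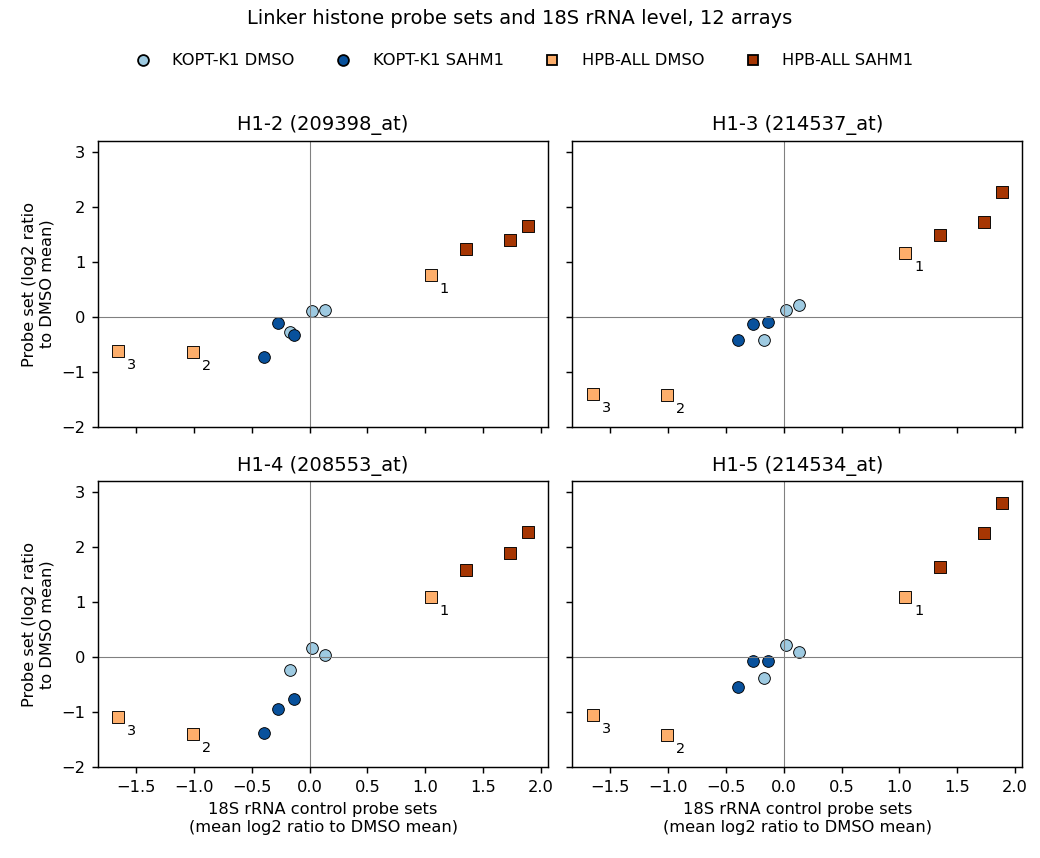
Log2 ratio of the probe sets of H1-2, H1-3, H1-4 and H1-5 (vertical axes) against the mean log2 ratio of the 3 control probe sets for 18S rRNA (horizontal axes) on each of the 12 arrays; numbers mark the HPB-ALL DMSO replicates. In each panel HPB-ALL DMSO replicate 1 (18S at 1.05) lies nearer to the mean of the SAHM1 arrays (18S from 1.35 to 1.89) than to replicates 2 and 3, which lie far below.

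In KOPT-K1 no linker probe set was called by limma, and 0 of 12 had an unadjusted p under 0.05. Of all probe sets 11.8% were higher and 17% lower at that unadjusted threshold. H1-4 stood at -0.23, 0.17 and 0.03 in DMSO and at -1.38, -0.75 and -0.94 with SAHM1, so that every SAHM1 array was below every DMSO array. Its difference was -1.01 ± 0.47 (limma, adjusted p = 0.174). The standard error comes from all 4 groups, and the spread of the HPB-ALL DMSO arrays (SD 1.36) was larger than that of KOPT-K1 DMSO (SD 0.20). Fitted to the 6 KOPT-K1 arrays alone, the same difference passed the test (adjusted p = 0.0133), as it did with the 18S covariate (-0.77, adjusted p = 0.022) and without HPB-ALL DMSO replicate 1 (adjusted p = 0.00489). Over its 21 alternatives H1-4 was called in 5, and the adjusted p ran from 0.00489 to 0.871. A separate 18S slope per line gave no call of H1-4 in KOPT-K1, and neither did leaving out any single KOPT-K1 array. H1-2 was at -0.38 ± 0.30, H1-5 at -0.20 ± 0.50 and H1-3 at -0.18 ± 0.51, with overlapping groups.

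The response of the 4 genes differed between the lines when the difference itself was tested. HPB-ALL minus KOPT-K1 was 3.39 for H1-4 (limma, adjusted p = 0.00679), 2.89 for H1-5 (0.0195), 2.56 for H1-3 (0.0375) and 1.97 for H1-2 (0.0109). With the 18S covariate none of these was called (338 of all 54613 probe sets were). The other 8 linker probe sets were called in neither line. H1-1 (208484_at) stood at 0.02 in HPB-ALL and 0.12 in KOPT-K1. H1-10 (204805_s_at), the replication-independent H1.X, stood at 0.08 and -0.22. The germ-cell genes H1-6, H1-7 and H1-8, with 6 probe sets, ran from -0.11 to 0.09 in HPB-ALL and from -0.02 to 0.14 in KOPT-K1.

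Among the core histones of HPB-ALL, 8 of 43 probe sets rose, while 3.09% of all probe sets did. The 8 were 3 of 10 for H2A, 2 of 15 for H2B, 2 of 9 for H3 and 1 of 9 for H4. H2AC14 (208583_x_at), a replication-dependent H2A gene, stood at 0.36, -0.06 and -0.40 in DMSO and at 1.04, 1.19 and 0.96 with SAHM1, and rose by 1.10 ± 0.19 (limma, adjusted p = 0.00637). H2AC17 (214481_at), another H2A gene, stood at 0.29, 0.01 and -0.38 in DMSO and at 0.90, 0.82 and 1.23 with SAHM1, and rose by 1.01 ± 0.18 (adjusted p = 0.00904). H3C11 (214509_at), which encodes H3.1, stood at 0.41, -0.08 and -0.48 in DMSO and at 0.83, 0.87 and 0.74 with SAHM1, and rose by 0.86 ± 0.21 (adjusted p = 0.033). In these 3 probe sets the groups did not overlap, and the DMSO arrays fell in the order of their 18S levels, with replicate 1 highest and replicate 3 lowest. H3C2 (208576_s_at) rose by 0.57 ± 0.14 and H4C5 (206951_at) by 0.50 ± 0.13. Both probe sets of H2BC5 rose, 209911_x_at by 0.50 ± 0.09 and 222067_x_at by 0.45 ± 0.09. H2AC6, described below for both lines, was the other core gene that rose. Over the 12 members that rose, DMSO replicate 1 was the highest of the 3 controls in 11, against 35 of all 78 members and 30.6% of all probe sets tested. The exception was the 209911_x_at probe set of H2BC5, at -0.03, -0.06 and 0.09 in DMSO and 0.43, 0.57 and 0.49 with SAHM1.

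With the 18S covariate none of the 12 HPB-ALL rises was called by limma, and all 12 stayed above 0. At an unadjusted p under 0.05, 5 of the 78 members (6.41%) were then higher and 0 lower, against 3.31% and 2.73% of all probe sets. After adjustment 0.0348% of all probe sets were called in this line. The differences with the covariate were 0.68 ± 0.20 for H2AC6, 0.64 ± 0.29 for H2AC17, 0.45 ± 0.22 for H2AC14, 0.26 ± 0.28 for H3C11, 0.24 ± 0.20 for H4C5 and 0.15 ± 0.18 for H3C2. H2BC5 stood at 0.56 ± 0.15 by 209911_x_at, slightly above its value without the covariate, and at 0.25 ± 0.13 by 222067_x_at. Without DMSO replicate 2 the count of 12 was 5 (0.883% of all probe sets rose), and without DMSO replicate 3 it was 5 (1.2%). The count was 4 without SAHM1 replicate 2 (0.919%), 8 without SAHM1 replicate 1 (1.22%) and 13 without DMSO replicate 1 (4.31%). It was 0 against DMSO replicate 1 alone (0.126% of all probe sets called), with 11 members (14.1%, against 4.23% of all probe sets) higher at an unadjusted p under 0.05, and 6 of 7 when probe sets with a suffix of _x_at or _s_at were left out (2.62% of the probe sets kept rose). The suffix marks probe sets that can bind transcripts of several genes, which in these near-identical families concerns 24 of the 78 members. The core probe sets that were not called in HPB-ALL ran from -0.33 (H3C7) to 0.46 (H4C8, adjusted p = 0.068).

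**Figure D3:**
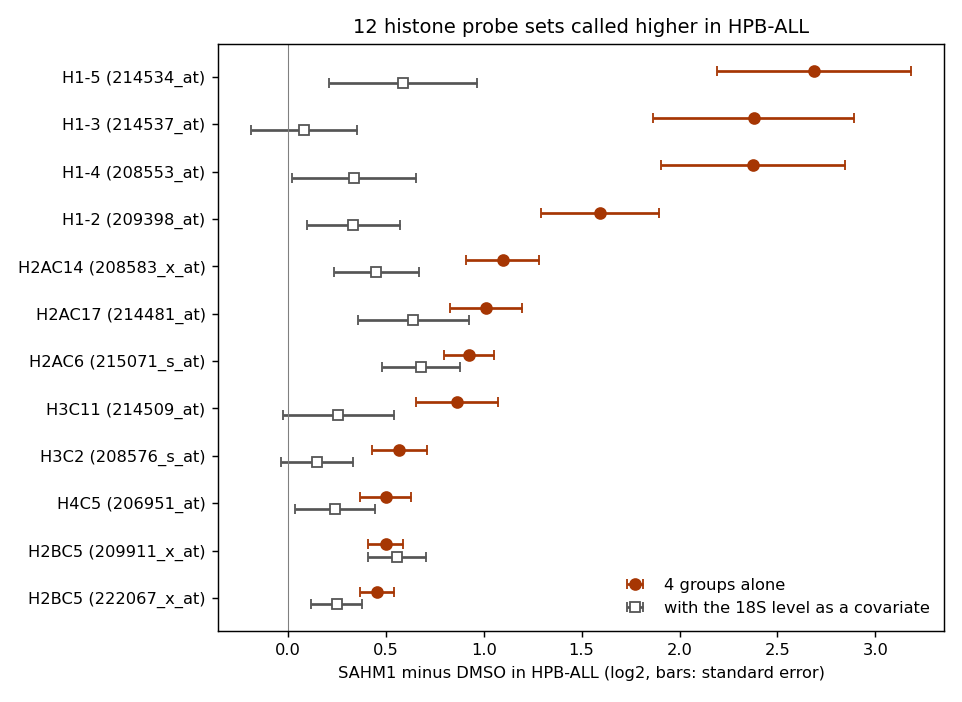
Log2 difference of SAHM1 minus DMSO in HPB-ALL ± standard error (limma) for the 12 histone probe sets called higher, from the 4 groups alone (filled circles) and with the 18S level of each array as a covariate (open squares). The linker genes fall from 1.59 to 2.69 without the covariate to 0.08 to 0.59 with it, while the 209911_x_at probe set of H2BC5 is at 0.50 and 0.56.

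H2AC6, an H2A gene whose transcripts also occur in a polyadenylated form, rose in both lines. Its promoter is printed because of this (RefSeq, GRCh38.p14, chr6:26123922-26124171, plus strand; capitals as above).
H2AC6: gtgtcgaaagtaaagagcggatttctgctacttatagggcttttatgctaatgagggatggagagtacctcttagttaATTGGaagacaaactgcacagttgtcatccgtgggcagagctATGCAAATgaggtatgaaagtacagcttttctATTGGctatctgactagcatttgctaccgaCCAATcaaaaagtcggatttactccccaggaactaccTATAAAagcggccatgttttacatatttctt

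In KOPT-K1, H2AC6 (215071_s_at) stood at -0.06, 0.06 and -0.01 in DMSO and at 0.55, 0.53 and 0.56 with SAHM1, and rose by 0.55 ± 0.13 (limma, adjusted p = 0.0125). In HPB-ALL it stood at 0.24, -0.38 and 0.07 in DMSO and at 0.80, 0.93 and 0.97 with SAHM1, and rose by 0.92 ± 0.13 (adjusted p = 0.00197). The groups did not overlap in either line. The difference between the lines was 0.38 ± 0.18 and did not pass the test (adjusted p = 0.209). H2AC6 in KOPT-K1 was at 0.58 and still called with the 18S covariate, and at 0.57 and not called with a separate 18S slope per line (limma, adjusted p = 0.0956, with a range of 0.00134 to 0.469 over 20 alternatives). In HPB-ALL the 18S covariate left it at 0.68, not called (adjusted p = 0.479, with a range of 3.58e-04 to 0.667 over 20 alternatives). Without HPB-ALL DMSO replicates 2 and 3 it stood at 0.66 in HPB-ALL and was not called.

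H2AC6 shares its promoter region with H2BC4, which is read in the opposite direction from a start 246 bases away by RefSeq. Such head-to-head pairs of an H2A and an H2B gene are common in the cluster, and 4 of them had members on both sides. In HPB-ALL the H2A gene rose and its partner did not pass the test in 3 pairs. H2AC6 was at 0.92 and H2BC4 at 0.30 (adjusted p = 0.151), H2AC14 at 1.10 and H2BC14 at 0.28 (0.195), and H2AC17 at 1.01 and H2BC17 at 0.23 (0.185). The difference between partners was not tested. In the fourth pair H2AC15 stood at 0.21 and -0.09 by 2 probe sets and H2BC15 at 0.20, none of them called.

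Among the members called in KOPT-K1 the largest fall was in H3C7, an H3.1 gene, and the next in H2BC9, its neighbour on chromosome 6, whose start lies 979 bases away and points in the opposite direction. Both promoters are printed because the 2 genes fell in the same line (RefSeq, GRCh38.p14; H3C7 at chr6:26250636-26250885 on the minus strand, H2BC9 at chr6:26251364-26251613 on the plus strand; capitals as above).
H3C7: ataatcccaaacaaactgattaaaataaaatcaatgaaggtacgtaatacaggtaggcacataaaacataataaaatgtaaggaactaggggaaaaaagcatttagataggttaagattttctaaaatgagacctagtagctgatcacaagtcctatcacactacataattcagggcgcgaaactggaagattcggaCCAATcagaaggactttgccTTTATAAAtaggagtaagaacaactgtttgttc
H2BC9: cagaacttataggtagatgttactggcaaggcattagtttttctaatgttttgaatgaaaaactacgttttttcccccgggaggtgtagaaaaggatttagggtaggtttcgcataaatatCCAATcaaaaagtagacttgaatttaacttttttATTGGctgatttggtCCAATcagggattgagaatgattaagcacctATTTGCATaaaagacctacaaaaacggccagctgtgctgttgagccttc

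H3C7 (208506_at) stood at 0.30, -0.01 and -0.36 in DMSO and at -0.94, -0.84 and -1.13 with SAHM1, and fell by 0.94 ± 0.15 (limma, adjusted p = 0.00145). H2BC9 (208546_x_at) stood at -0.06, 0.03 and 0.02 in DMSO and at -0.77, -0.74 and -0.50 with SAHM1, and fell by 0.67 ± 0.11 (adjusted p = 0.00198). H4C5 (206951_at) stood at 0.19, 0.06 and -0.30 in DMSO and at -0.57, -0.38 and -0.67 with SAHM1, and fell by 0.52 ± 0.13 (adjusted p = 0.0182). In each of these the groups did not overlap, and the SAHM1 arrays were the lower. The pseudogene H2AC5P (234960_at) fell by 0.53 ± 0.10 and H2BC6 (208527_x_at) by 0.35 ± 0.10 (adjusted p = 0.00456 and 0.0284). In HPB-ALL H3C7 was at -0.33 ± 0.15 and H2BC9 at 0.26 ± 0.11 (adjusted p = 0.268 and 0.241). H4C5 was the member called in opposite directions, lower in KOPT-K1 and higher in HPB-ALL (limma, adjusted p = 0.0456 in HPB-ALL). Its HPB-ALL call held in 7 of 21 alternatives and its KOPT-K1 call in 16 of 21. Fitted to the KOPT-K1 arrays alone, its fall was not called (limma, adjusted p = 0.0573). The difference between the lines for H4C5 was 1.02 ± 0.19 (limma, adjusted p = 0.00466).

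Besides H2AC6, H2BC12 rose in KOPT-K1. It is an H2B gene also known to give polyadenylated transcripts. Its probe set 209806_at stood at 0.01, -0.13 and 0.11 in DMSO and at 0.32, 0.36 and 0.37 with SAHM1, and the rise was 0.35 ± 0.08 (limma, adjusted p = 0.00976). In HPB-ALL it was at 0.05 ± 0.08, with overlapping groups. All 8 KOPT-K1 calls held with the 18S covariate (4.09% of all probe sets rose and 9.25% fell). With a separate 18S slope per line 4 of them held (6.18% called), and H2AC6, H2BC12, H2BC6 and H2AC5P were lost. Fitted to the KOPT-K1 arrays alone, 5 of the 8 held (8.61% called). That fit lost H2BC12, H2BC6 and H4C5 (limma, adjusted p from 0.052 to 0.0573). The 5 falls became 3 without KOPT-K1 DMSO replicate 1 and without KOPT-K1 SAHM1 replicate 3, where H2BC6 and H4C5 were not called. The 3 rises became 5 without HPB-ALL DMSO replicate 2. The spike and ACTB measures given above moved with SAHM1 in this line, and their part in these calls was not tested. The other core probe sets ran from -0.35 (H3C2, adjusted p = 0.112) to 0.27 (H4C9, adjusted p = 0.0675). By non-overlap of the groups alone, 10 members were higher and 10 lower in KOPT-K1 (12.4% and 18.5% of all probe sets), and 27 were higher and 3 lower in HPB-ALL (12.5% and 12.4%).

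**Figure D4:**
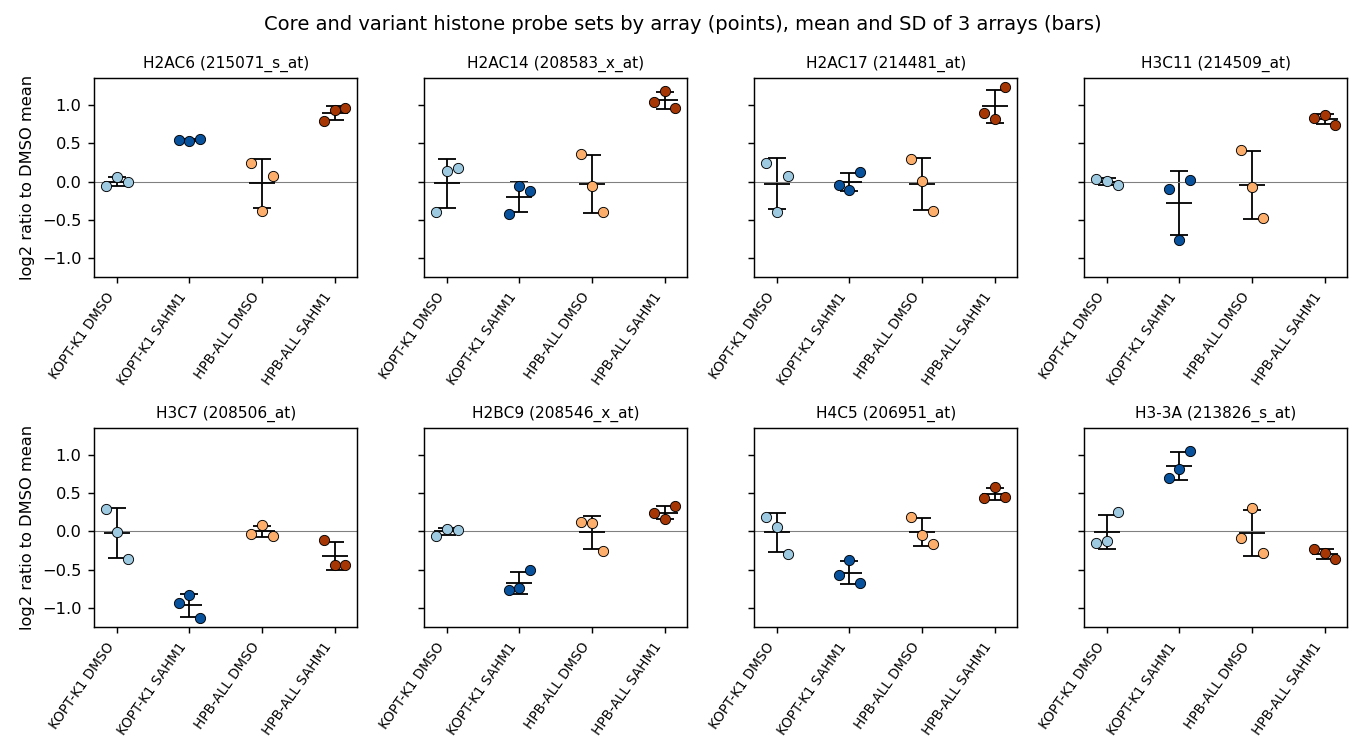
Log2 ratio to the DMSO mean for 7 core histone probe sets and H3-3A on each of the 12 arrays (points), with the mean and SD of the 3 arrays per group (bars). H2AC6 is higher with SAHM1 in both lines; H2AC14, H2AC17 and H3C11 are higher in HPB-ALL; H3C7, H2BC9 and H4C5 are lower in KOPT-K1, where H3-3A is higher.

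No variant histone was called in HPB-ALL. Of 19 probe sets 0 passed limma's test, and they ran from -0.27 to 0.27. At an unadjusted p under 0.05, 3 (15.8%) were higher and 0 lower, against 9.97% and 7.8% of all probe sets. The 4 probe sets of H2AX, which marks DNA breaks once phosphorylated, stood between 0.01 and 0.27 in HPB-ALL and between 0.03 and 0.41 in KOPT-K1, where 205436_s_at was at 0.26 ± 0.08 (adjusted p = 0.0501). H2AZ1 and H2AZ2 encode H2A.Z, placed at promoters by the SRCAP and EP400 complexes. Their 6 probe sets ran from -0.05 to 0.17 in HPB-ALL and from -0.15 to 0.09 in KOPT-K1. MACROH2A1 and MACROH2A2 encode the macroH2A proteins, enriched on the inactive X chromosome and in silent chromatin. Their 8 probe sets ran from -0.05 to 0.18 in HPB-ALL and from -0.20 to 0.12 in KOPT-K1. Of these 18 probe sets none was called in either line, while in KOPT-K1 4.75% of all probe sets rose and 9.8% fell. At an unadjusted p under 0.05 by limma's test, 3 of the 19 variant probe sets (15.8%) were higher and 0 lower in KOPT-K1. Of all probe sets 11.8% were higher and 17% lower there.

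H3-3A encodes H3.3, which replaces H3 outside S phase, and was the variant called in KOPT-K1. Its probe set 213826_s_at stood at -0.15, -0.13 and 0.25 in DMSO and at 0.70, 0.81 and 1.05 with SAHM1, and rose by 0.87 ± 0.15 (limma, adjusted p = 0.00268). In HPB-ALL it stood at -0.09, 0.31 and -0.28 in DMSO and at -0.24, -0.29 and -0.36 with SAHM1, with overlapping groups and a difference of -0.27 ± 0.15. The difference between the lines was -1.14 ± 0.21 (adjusted p = 0.00544). Another 8 probe sets, annotated to H3-3A and H3-3B together, stood between -0.13 and 0.19 in KOPT-K1 and between -0.08 and 0.14 in HPB-ALL, and none was called. The difference between these and 213826_s_at was not tested.

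Probe sets annotated to several histone genes were no members, since their signal cannot be given to a gene. Of 28, 20 held replication-dependent genes. In HPB-ALL 7 of these 20 rose (3.09% of all probe sets rose). Of the 20, 19 were above 0 (47% of all probe sets were), and the median of the 20 was 0.43. The largest value was 1.34 ± 0.19 for a probe set of H2AC18 and H2AC19 (218280_x_at, limma, adjusted p = 0.00256). In HPB-ALL 0 of the 20 were called once 18S was a covariate (0.0348% of all probe sets called). In KOPT-K1 0 of the 20 were called (4.75% of all probe sets rose and 9.8% fell). At an unadjusted p under 0.05 by limma's test, 1 of all 28 (3.57%) was higher and 2 (7.14%) lower. Of all probe sets 11.8% were higher and 17% lower.

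Other RNAs without a conventional poly(A) tail were few on the array: 2 of 17 listed genes were measured with a single symbol, MALAT1 by 12 probe sets and RPPH1 by 1. MALAT1, a nuclear long non-coding RNA with a triple-helical 3' end, rose in HPB-ALL in 10 of 12 probe sets (3.09% of all probe sets rose). Its values ran from 0.75 to 2.32, and DMSO replicate 1 was the highest of the 3 DMSO arrays in all 12. None of the 12 was called with the 18S covariate (0.0348% of all probe sets called), where their values ran from -0.46 to 1.24. In KOPT-K1, 3 of the 12 fell (9.8% of all probe sets fell), with values from -1.73 to -0.69. RPPH1, the RNA of ribonuclease P, stood at -0.08 in HPB-ALL and 0.01 in KOPT-K1.

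Factors that transcribe, process or degrade histone mRNA were tested by probe set, and the calls were counted over a list. Of 24 measured genes with 71 probe sets, 5 probe sets rose and 16 fell in KOPT-K1 (4.75% and 9.8% of all), while in HPB-ALL 1 rose and none fell (3.09% and 2.06% of all). NPAT, the coactivator of histone gene transcription at histone locus bodies, rose in KOPT-K1 by 0.92 ± 0.19 by 1 probe set (limma, adjusted p = 0.00757). CCNE1, the cyclin whose kinase phosphorylates NPAT, rose by 0.44 ± 0.13, and CPSF2 by 0.38 ± 0.11. ZNF473, a zinc finger protein of the complex that cleaves histone pre-mRNA, fell by 0.73 ± 0.11. UPF1, a helicase that takes part in histone mRNA decay, fell by 0.74 ± 0.12. For NFYC, a subunit of the CCAAT-binding factor NF-Y, 2 probe sets fell, by 0.65 and 0.61. NFYB, another NF-Y subunit, rose by 0.25 ± 0.07 in KOPT-K1 by 1 probe set (218129_s_at). In HPB-ALL another probe set of NFYB (218128_at) rose by 0.35 ± 0.07 (limma, adjusted p = 0.0177), and it was not called with the 18S covariate (0.29, adjusted p = 0.784).

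Of 30 histone chaperone and exchange genes with 78 probe sets, 3 probe sets rose and 12 fell in KOPT-K1 (4.75% and 9.8% of all), while HPB-ALL had 4 of each (3.09% and 2.06% of all). NASP, a chaperone of H3, H4 and linker histones, fell in KOPT-K1 by 1.20 ± 0.20 and rose in HPB-ALL by 0.85 ± 0.20 by the same probe set, 242918_at. In HPB-ALL it stood at 0.19 once the 18S level was a covariate and was not called. IPO4, which carries H3 and H4 into the nucleus, fell in both lines, by 0.92 ± 0.10 in HPB-ALL and by 0.63 ± 0.10 in the other. HIRA, which deposits H3.3, fell in KOPT-K1 by 0.43 ± 0.07, and ATRX also fell there (-0.36 ± 0.08). The 3 rises in KOPT-K1 were those of RBBP4 (0.50 ± 0.09), SRCAP (0.41 ± 0.12) and VPS72 (0.29 ± 0.08). RBBP4 fell in HPB-ALL (-0.34 ± 0.09) by the same probe set, 225396_at. DAXX (-0.29 ± 0.08) and NPM1 (-0.25 ± 0.07) fell in HPB-ALL as well. HJURP, the chaperone of the centromeric H3 variant CENPA, rose in HPB-ALL by 0.30 ± 0.07, as did UBN1 (0.70 ± 0.18) and CDAN1 (0.33 ± 0.08). None of the HPB-ALL calls in this list remained with the 18S covariate (0.0348% of all probe sets called). CENPA itself, left out of the members by its symbol, rose in both lines, to 0.62 ± 0.07 above DMSO in HPB-ALL and 0.33 ± 0.07 above it in KOPT-K1. Its HPB-ALL call was also lost with the 18S covariate, at a value of 0.61 (limma, adjusted p = 0.21).

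Genes of S phase, when replication-dependent histone mRNA is made, were also tested. Of 19 genes with 36 probe sets, 2 probe sets rose and 9 fell in KOPT-K1 (4.75% and 9.8% of all). In HPB-ALL none rose and 3 fell (3.09% and 2.06% of all). The replication licensing genes CDC6 (-0.53 ± 0.08) and MCM2 (-0.45 ± 0.08) fell in KOPT-K1. CCNA2, the cyclin of S phase and G2, rose there by 0.44 ± 0.09, and TK1 by 0.29 ± 0.09. In HPB-ALL the helicase genes MCM4 (-0.51 ± 0.10), MCM5 (-0.33 ± 0.08) and MCM3 (-0.32 ± 0.08) fell. With the 18S covariate they stood at -0.39, -0.22 and -0.18, and none was called (0.0348% of all probe sets called). T-cell markers had 0 of 12 probe sets called in KOPT-K1, and CD3G (0.71) higher and CD7 (-0.46) lower in HPB-ALL. With 18S as a covariate CD3G stood at -0.02 and CD7 at -0.33, and neither was called. Of the markers of other cells, MS4A1 (B cell, 2 of 6 probe sets) and HBB (erythroid, 1 of 4) rose in KOPT-K1, and 0 of 5 myeloid probe sets were called in either line. Their part in the histone results was not tested.

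The probe sets outside the histone list whose values over the 6 HPB-ALL arrays lay nearest to the mean linker profile were found by root mean square distance. They belonged to PTCD2 (0.0886), DLEU2 (0.0927), PALLD (0.0938), ARHGAP30 (0.0941) and CGAS (0.0962). That profile averages all 12 linker probe sets, of which H1-2 to H1-5 moved and 8 stood near 0, so it is the profile of no single gene. It was 0.29, -0.34 and -0.36 in DMSO and 0.60, 0.73 and 0.48 with SAHM1, and PTCD2 stood at 0.40, -0.26 and -0.24 and at 0.61, 0.62 and 0.47. The measure is over 6 arrays of 1 line and describes these arrays.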

How the data were processed

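Expression was measured on 12 arrays, 3 per group. Per the submitters' processing notes the arrays were summarised by RMA (version not given in the sources used here), and the deposited values are linear ratios to the DMSO mean of each line: that mean was 1 within 1e-06 for 54675 of 54675 probe sets in each line. Ratios were turned to log2 with no pseudocount and fitted with limma 3.58.1 in R 4.3.3 (4 groups, 8 residual degrees of freedom), leaving out 62 control probe sets. P-values were adjusted by Benjamini-Hochberg over 54613 probe sets, with calls at 0.05. The script was tested on simulated data. Of probe sets changed by a log2 value of 0.5, 37% were called in KOPT-K1 and 47% in HPB-ALL. With a change of 1, 89% were called in each line. Control measures were compared by 2-sided exact permutation tests over 20 relabellings (scipy 1.17.1, Python 3.11.15).

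Identical arrays were not found, and every sample column was used. Cultures are taken as the replicates; p-values measure the spread between these arrays, which may be technical, and their number limits the precision. Ratios within a line keep differences between its arrays and remove levels and differences between lines at baseline. Named were all linker and variant probe sets, core probe sets called or extreme in their family, and up to 4 called probe sets per list, line and direction. Members and lists were chosen with earlier results of these data known. Alternatives were an 18S covariate, quantile normalization, fits within a line, robust fitting, a replicate block, no _x_at or _s_at probe sets, leaving out each array, and 3 chosen after seeing the data: an 18S slope per line, HPB-ALL DMSO replicate 1 as the only control, and the 18S covariate without that array.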

Additional observations from a re-analysis of the deposited data

Results flagged for a closer look

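The response to SAHM1 differed between the lines in 16 of the 78 histone probe sets, while it did in 11.7% of all probe sets. The difference itself was tested by limma (adjusted p under 0.05). Given as the log2 response in HPB-ALL minus that in KOPT-K1, the linker genes stood at 3.39 for H1-4, 2.89 for H1-5, 2.56 for H1-3 and 1.97 for H1-2. Among core H2A and H3 genes the difference was 1.27 for H2AC14, 0.99 for H2AC17, 1.14 for H3C11 and 0.92 for H3C2. H4C5 stood at 1.02. Among H2B genes it was 0.93 for H2BC9, 0.62 for H2BC6, 0.56 and 0.43 for the 222067_x_at and 209911_x_at probe sets of H2BC5, and 0.45 for H2BC17, which was called in neither line alone. The pseudogene H2AC5P stood at 0.63. H3-3A was the probe set with a difference below 0, at -1.14. With the 18S covariate none of the 16 passed limma's test (338 of all 54613 probe sets did). At an unadjusted p under 0.05, 10 members (12.8%) were then higher and 1 (1.28%) lower, against 8.88% and 4.62% of all probe sets.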

How the results depend on the processing

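The count of members that rose in HPB-ALL, 12 in the reported analysis, was 0 with the 18S covariate, 0 with an 18S slope per line, 0 with the covariate and without HPB-ALL DMSO replicate 1, 0 without HPB-ALL DMSO replicates 2 and 3, 0 after quantile normalization and 6 without _x_at and _s_at probe sets; without 1 array at a time it ran from 4 to 13. The share of all probe sets that rose in HPB-ALL ran from 0.883% to 4.31% without 1 array at a time. It was 0.0201% with the 18S covariate and 0.0128% with an 18S slope per line. The count of members that fell in HPB-ALL was 0 in every setting. In KOPT-K1 the 3 rises were 1 with an 18S slope per line, 1 without _x_at and _s_at probe sets and 0 after quantile normalization (3 to 5 without 1 array), and the 5 falls were 3 and 0 in the latter settings (3 to 6 without 1 array). The 15 higher differences between the lines were 0 in all 3 settings with 18S, 9 without _x_at and _s_at probe sets, 0 after quantile normalization and 2 without HPB-ALL DMSO replicates 2 and 3 (10 to 14 without 1 array). The 1 lower difference was 0 in the settings with 18S, 0 without those probe sets and 0 after quantile normalization (1 to 2 without 1 array). After quantile normalization limma called 0 members in either line (0.544% of all probe sets called in HPB-ALL and 0.372% in KOPT-K1), while at an unadjusted p under 0.05 14 in HPB-ALL were higher (17.9%, against 4.98% of all probe sets), and in KOPT-K1 3 were higher and 3 lower (3.85% each, against 3.55% and 5.87%). H2AC14 (-0.80) and H3C2 (-0.97) changed sign in HPB-ALL with the covariate and without DMSO replicate 1, where 0 of 54613 probe sets were called. The DMSO arrays left had 18S levels of -1.01 and -1.65, against 1.35 to 1.89 with SAHM1. The cause of the sign changes was not tested. Leaving out _x_at and _s_at probe sets leaves fewer members to test; the cause of the other changes was not tested. Arrays of the same number shared only a number (correlations of their deviations from -0.0107 to 0.0605); with the replicate block 11 members rose in HPB-ALL, 3 rose and 4 fell in KOPT-K1, and 13 and 1 differed between the lines. Robust fitting changed no call of a member within a line. Fitted to the arrays of each line alone, 11 members rose in HPB-ALL (1.86% of all probe sets rose). In KOPT-K1 2 then rose and 4 fell (2.27% and 6.34% of all). Levels over background were not given by the ratios, so members near background could not be told from others.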
